A study of Mus musculus with 79 samples.

Results

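ATGL loss was examined in the lumbar vertebrae (LV), by comparing 8 libraries of BMAd-Pnpla2-/- (cKO) mice with 10 of WT mice. These were all LV libraries of the series, 18 of its 79, and they were chosen by their sample titles. All 18 mice were females aged 4 to 5 months on a mixed SJLxC57BL6 background, and the WT mice were littermate controls. The cKO mice lacked ATGL in bone marrow adipocytes (BMAds). The Cre driver is not given in the sources used here. Every mouse had ICV surgery and pair feeding, so the controls shared both. ICV PBS was given to 4 cKO and 5 WT mice, and 4 cKO and 5 WT mice received leptin by the same route, 100 ng per h over 9 days. Genotypes were compared over both treatments in 1 fit with treatment as a covariate. The caudal vertebrae (CV) of the same 18 mice, and the CV of 22 males without insulin (9 cKO, 13 WT), were used for values side by side.

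ATGL, encoded by Pnpla2, removes the first fatty acid from stored triacylglycerol. It is activated by ABHD5 and inhibited by G0S2 and HILPDA, and hormone-sensitive lipase (Lipe) and monoacylglycerol lipase (Mgll) act on its products. CV marrow is rich in constitutive bone marrow adipocytes, whereas LV hold red, haematopoietic marrow with few adipocytes, and the study used LV as its tissue without fat. The question was which transcripts differ in such marrow when ATGL is missing from BMAds. In these bulk samples, fewer cells of a type and less RNA per cell cannot be told apart.

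Total counts were 28717516 to 29757254 per LV library, and the 10 most abundant genes took 12.2% to 19% of the counts. Mouse numbers in the labels fell into series in the 100s, the 600s and the 5400s, which the labels do not explain. The cKO mice were 5 from the 100s, 1 from the 600s and 2 from the 5400s, and the WT mice 5 from the 100s and 5 from the 600s. The first principal component, with 33.6% of the variance of the 1000 most variable genes, ran from -29.6 to 15.29 in mice of the 100s and from 1.23 to 25.91 in the others. Results are therefore also given within the 100s, with 5 cKO and 5 WT mice. Even there, every cKO mouse had a lower number than every WT mouse, so genotype and number order cannot be told apart. What the series stand for, and their part in any result, was not tested.

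Pnpla2 showed no detectable difference between the genotypes in LV. In WT mice it was at 22.45, 22.91, 20.53, 20.45 and 30.38 TPM (transcript abundance scaled for gene length and library size) with PBS, and at 26.37, 21.88, 26.25, 27.96 and 22.89 TPM with leptin. In cKO mice it was at 19.18, 17.47, 25.8 and 23.27 TPM with PBS, and at 26.3, 25.44, 22.66 and 35 TPM with leptin. The genotypes overlapped with either treatment. Mean Pnpla2 was 24.4 ± 5.33 TPM (SD, n = 8) in cKO and 24.2 ± 3.34 TPM (SD, n = 10) in WT LV, a ratio of 101% (p = 0.926 in a two-sided exact permutation test within treatments). The Pnpla2 log2 fold change was 0.05 (95% confidence interval -0.17 to 0.28, adjusted p = 0.968). In CV of the same mice, Pnpla2 averaged 183.3 ± 51.8 TPM (SD, n = 8) in cKO and 259 ± 57.5 TPM (SD, n = 10) in WT, a ratio of 70.7% (p = 0.00957 in the same exact permutation test). The Pnpla2 fold change itself differed between CV and LV by -0.54 ± 0.12 (SE) on the log2 scale at an unadjusted p of 0.000364, which did not pass the adjustment (adjusted p = 0.459). The 2 cKO mice of the 5400s had the highest Pnpla2 of their groups in CV, with 256 TPM (PBS) and 266 TPM (leptin), against 131 to 194 TPM in the other 6 cKO mice. Gene counts cover the whole gene and do not separate the deleted part of Pnpla2.

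**Figure D1:**
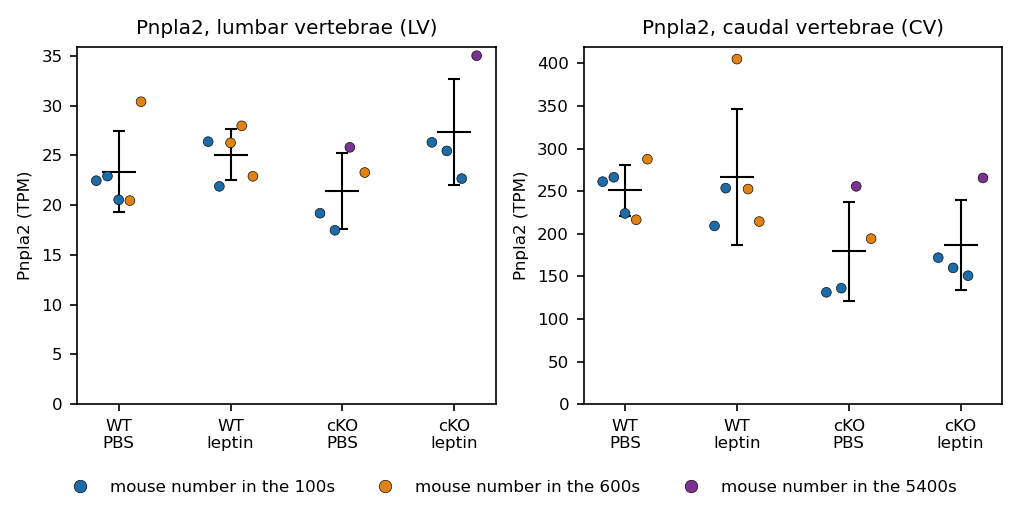
Pnpla2 (TPM, linear axes from 0) in each mouse, in LV on the left and in CV on the right, by genotype and treatment. Points are mice coloured by mouse number series, and bars are the mean with the SD. In LV the groups overlap, with means of 24.4 TPM in cKO and 24.2 TPM in WT, and in CV 6 of 8 cKO mice lie below every WT mouse.

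The nearest tested genes on either side of Pnpla2 had small differences. On the proximal side, Pidd1 had a log2 fold change of -0.02 and Rplp2, which encodes a ribosomal stalk protein, of -0.03. On the distal side, Cracr2b had 0.06 and the tetraspanin gene Cd151 had 0.05. None of these 4 neighbours passed an unadjusted p of 0.05.

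Across the LV transcriptome, 3 genes changed with genotype. Il4ra and AI467606 rose and Inpp5f fell, which is 0.0202% of the 14873 genes tested. A change here means a Benjamini-Hochberg adjusted p below 0.05 in the quasi-likelihood test of edgeR together with a log2 fold change of 0.5 or more in either direction. On the adjusted p alone, 4 genes passed (0.0269%), the added gene being Ogn. Differences were small: the median absolute log2 fold change was 0.06 against a median SE of 0.08, and 55.3% of genes had a value above 0. An unadjusted p below 0.05 was reached by 676 genes (4.55%), of which 483 were higher (3.25%) and 193 lower (1.3%) in cKO, and 153 genes (1.03%) were below 0.01. In the same fit, leptin changed 1.11% of genes at the same thresholds. Within the mice of the 100s, no gene passed (0%; smallest adjusted p = 0.0796), while 2633 genes (17.7%) had an unadjusted p below 0.05.

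Il4ra encodes the alpha subunit of the receptors for interleukin-4 and interleukin-13. It lies on chromosome 7 at 125552271 to 125579474 (GRCm38.p6). It was at 8.6, 7.94, 8.11, 4.64 and 6.2 TPM in WT mice with PBS and at 9.24, 10.15, 6.64, 9.1 and 9.13 TPM with leptin. In cKO mice it was at 12.42, 10.75, 10.98 and 8.42 TPM with PBS and at 14.06, 15.32, 12.32 and 13.08 TPM with leptin. With leptin the genotypes did not overlap, and with PBS only the lowest cKO mouse, of the 600s, fell below the highest WT mouse. The Il4ra rise was 0.67 ± 0.09 (SE) on the log2 scale (edgeR adjusted p = 0.00536), 1.59-fold. Within the 100s it was 0.63 (adjusted p = 0.0796), and Il4ra passed in each of the 18 fits that left out 1 mouse.

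Inpp5f encodes an inositol phosphatase of the Sac family. It lies on chromosome 7 at 128611181 to 128696436. It was at 5.6, 5.56, 5.36, 4.7 and 5.61 TPM in WT mice with PBS and at 5.94, 5.64, 5.11, 5.73 and 4.59 TPM with leptin. In cKO mice it was at 3.22, 3.29, 3.24 and 3.29 TPM with PBS, below every WT mouse, and at 3.4, 5.86, 4.36 and 4.06 TPM with leptin, where replicate 2 was as high as WT. The Inpp5f fall was -0.52 ± 0.07 (SE) on the log2 scale (edgeR adjusted p = 0.00536). It was -0.65 within the 100s (adjusted p = 0.0796), and it passed in 17 of 18 fits that left out 1 mouse, with -0.49 in the fit without cKO PBS replicate 1.

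AI467606 is a protein-coding gene on chromosome 7 at 127090780 to 127094049. It was at 32.35 to 43.92 TPM in WT mice with PBS and at 38.72 to 47.69 TPM with leptin. In cKO mice it was at 65.07, 57.33, 48.73 and 45.67 TPM with PBS and at 61.49, 59.3, 55.67 and 55.78 TPM with leptin, so that the genotypes did not overlap within either treatment. Over the whole table, 2 genes (0.0134%) separated the genotypes within both treatments in the same direction, AI467606 and Gm12816. The AI467606 rise was 0.53 ± 0.08 (SE) on the log2 scale (edgeR adjusted p = 0.0251) and 0.57 within the 100s (adjusted p = 0.107). With the mouse number series as a covariate it was 0.53 and did not pass (edgeR adjusted p = 0.0554), while Il4ra and Inpp5f passed and Nlgn4l did as well. The call depended on single mice: it passed in 8 of 18 fits that left out 1 mouse, with values of 0.47 to 0.56 and adjusted p of 0.012 to 0.0935. It did not pass without any one of cKO PBS replicates 1 and 2, cKO leptin replicates 1 and 3, WT PBS replicates 1, 3, 4 and 5, and WT leptin replicates 3 and 4. Without the 5400s mice AI467606 had 0.57, Il4ra 0.69 and Inpp5f -0.54 (adjusted p = 0.0198 for each).

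**Figure D2:**
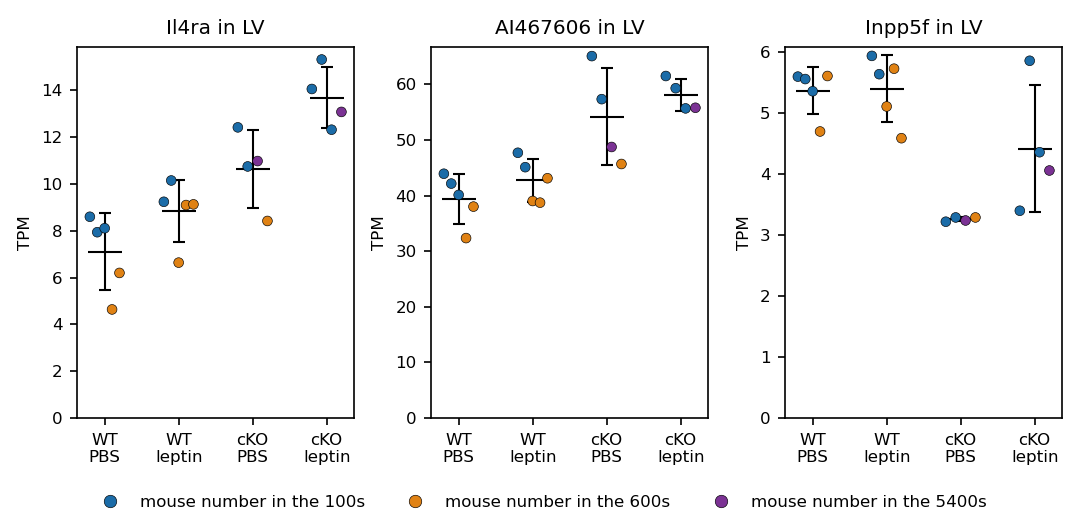
Il4ra, AI467606 and Inpp5f in LV (TPM, linear axes from 0) in each mouse by genotype and treatment, with points coloured by mouse number series and bars for the mean with the SD. For Il4ra and AI467606, 7 of 8 cKO mice lie above the highest of the 10 WT mice, and for Inpp5f 7 of 8 lie below the lowest.

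All 3 genes lie on chromosome 7, as does Pnpla2 at 141455188 to 141460743. Il4ra, AI467606 and Inpp5f start 15.9, 14.4 and 12.8 Mb from the start of Pnpla2. This position was noticed after the values were seen, so the shares around it are a description without a test. Within 20 Mb of Pnpla2, 27 of 251 tested genes (10.8%) had an unadjusted p below 0.05, 20 of them higher and 7 lower in cKO, against 37 of 882 (4.2%) on the rest of chromosome 7 and 605 of 13669 (4.43%) on other chromosomes. At an unadjusted p below 0.01 the counts were 15 of 251 (5.98%), 3 of 882 (0.34%) and 134 of 13669 (0.98%). Within 10 Mb there were 10 of 115 genes at p below 0.05. Within the mice of the 100s the share near Pnpla2 was 21.1% and the share elsewhere was 17.6%, without the 5400s mice they were 17.9% and 10.6%, and with the series as a covariate 17.9% and 12.5%. The cause of the higher share near Pnpla2 was not tested.

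The 15 genes of this region below 0.01 included neighbours of the 3 genes that changed. Il21r, which encodes the receptor of interleukin-21 and starts 23.8 kb beyond the end of Il4ra, had a log2 fold change of 0.32 ± 0.07 (SE) in LV (adjusted p = 0.22). Near AI467606 lay Slx1b, an endonuclease subunit gene with 0.31, Fbxl19, an F-box protein gene with 0.29, and the cytokine gene Ctf1 with 0.61, at 0.454 TPM in WT and 0.67 TPM in cKO LV. Arhgap17, which encodes a GTPase-activating protein, had 0.17, and the sulfotransferase gene Hs3st4 had -0.52, at means of 0.56 TPM in WT and 0.396 TPM in cKO LV. Closer to Pnpla2, Bub3 of the spindle checkpoint had 0.15 and the mitochondrial GTPase gene Mtg1 had 0.14. None of these 8 genes passed the adjustment.

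Mgmt encodes the enzyme that removes alkyl groups from guanine in DNA and starts 4.56 Mb from Pnpla2. It was at 12.48, 11.12, 10.49, 10.35 and 11.94 TPM in WT mice with PBS and at 11.26, 10.91, 11.32, 9 and 9.35 TPM with leptin. In cKO mice it was at 15.81, 14.63, 11.65 and 15.25 TPM with PBS and at 14.43, 14.45, 14.93 and 10.86 TPM with leptin. The 2 low cKO values, 11.65 and 10.86 TPM, were those of the mice of the 5400s, and the other 6 cKO mice were above every WT mouse. The Mgmt log2 fold change was 0.45 ± 0.1 (SE; adjusted p = 0.259), 0.54 within the 100s, and 0.54 without the 5400s mice, where it passed (edgeR adjusted p = 0.0277).

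The protein-coding gene 9430038I01Rik, 4.08 Mb from Pnpla2, was at 8.38 to 13.32 TPM in WT and at 5.56 to 8.58 TPM in cKO LV, with 7 of 8 cKO mice below every WT mouse. Its log2 fold change was -0.52 ± 0.11 (SE; adjusted p = 0.22). Ccnd1, a cell-cycle cyclin gene on the other side of Pnpla2 at 3.47 Mb, was at 3.75 to 7.7 TPM in WT and 5.26 to 8.97 TPM in cKO LV, with 0.53 ± 0.11 (SE; adjusted p = 0.22). Prss8, which encodes the serine protease prostasin, was near the floor: the WT libraries held 2 to 11 counts and the cKO libraries 0 to 3 (adjusted p = 0.0595).

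The males, which are other mice, gave values for the region in CV. Their mouse numbers fell into the same series as those of the females, again unevenly by genotype. The series with the highest numbers held cKO males and no WT males. Values within a series are not given for the males, and the part of the series in the male values was not tested. In male CV 19 genes changed with genotype (0.128%), 7 higher and 12 lower, and 4 of them lay within 20 Mb of Pnpla2, all higher: Il21r, AI467606, Mgmt and Gsg1l. There, 66 of the 251 genes (26.3%) had an unadjusted p below 0.05, against 11.9% of all genes. AI467606 rose by 0.99 ± 0.13 (SE) on the log2 scale in male CV (edgeR adjusted p = 0.000508), Il21r by 1.13 ± 0.12 (6.12e-05) and Mgmt by 0.77 ± 0.13 (0.00801). Inpp5f had -0.26 (adjusted p = 0.0391), short of the fold threshold, and Il4ra had 0.26 (adjusted p = 0.209). Of the 15 genes of the region below 0.01 in LV, 13 had the same direction in male CV and 11 of these an unadjusted p below 0.05. Of the 138 such genes elsewhere, 76 (55.1%) had the same direction and 25 (18.1%) also such a p. Genes of 1 region share it and are not independent readings. In female CV, 29 of the 251 genes (11.6%) were below 0.05, against 6.24% of all genes, and 0 genes passed (0%; 8 with DESeq2). LV and female CV come from the same mice. The values of Il4ra, AI467606 and Inpp5f in female CV were 0.54, 0.74 and -0.34, with adjusted p of 0.479, 0.365 and 0.0983.

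**Figure D3:**
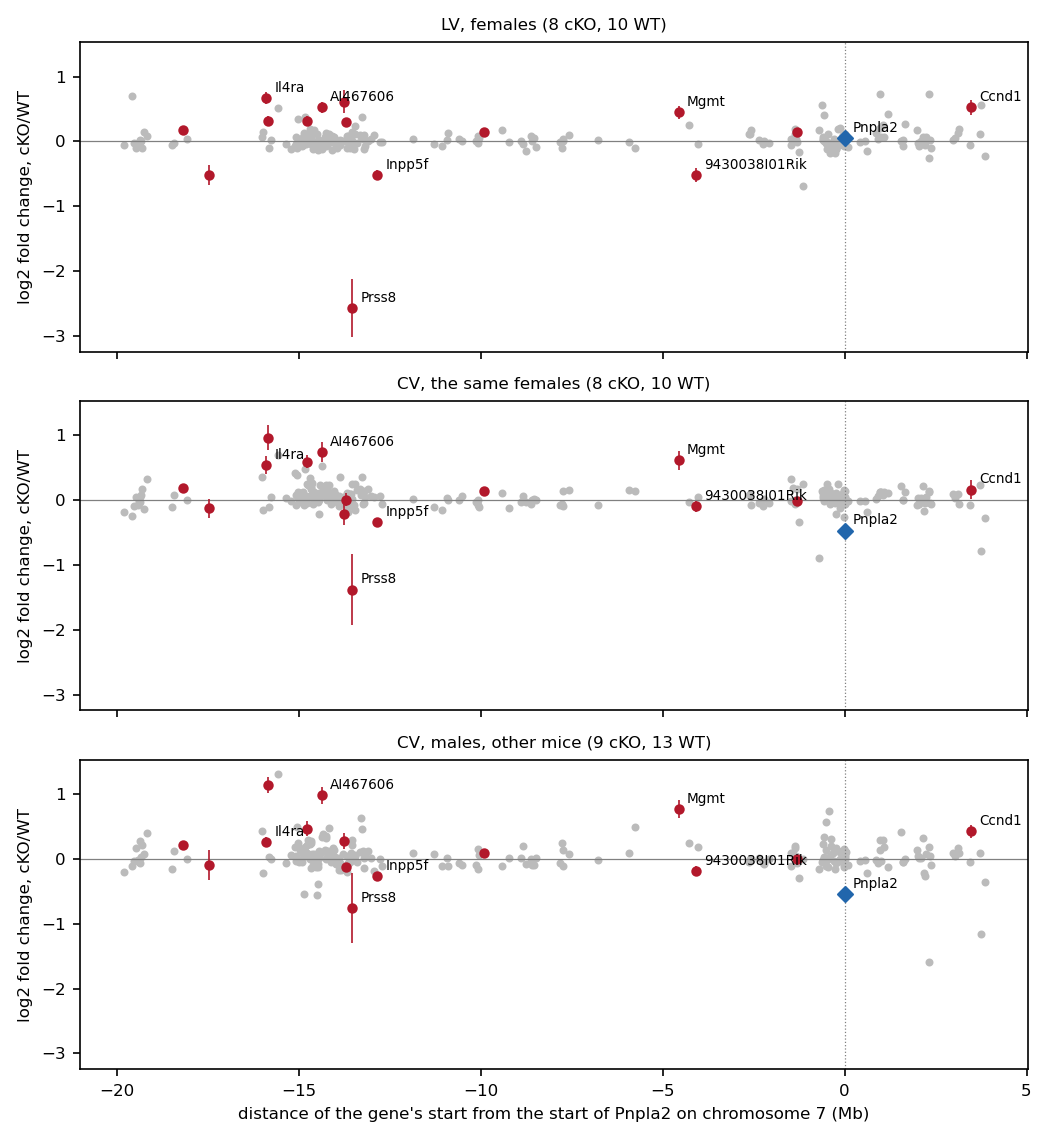
Log2 fold change of cKO against WT for the 251 tested genes within 20 Mb of Pnpla2, by the distance of each gene's start from that of Pnpla2 (Mb), in LV, in CV of the same females and in CV of males. Red points with SE bars are the 15 genes with an unadjusted p below 0.01 in LV, grey points the others, and the blue diamond Pnpla2. In LV Pnpla2 lies at 0.05 and Il4ra at 0.67, and the fitted value of Prss8, from 0 to 11 counts, is -2.57.

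Outside chromosome 7, no gene changed, and those with the smallest p are given here as values. Ogn encodes osteoglycin, a small leucine-rich proteoglycan of bone matrix. It was at 12.82 to 18.52 TPM in WT and 13.88 to 21.73 TPM in cKO LV, with a log2 fold change of 0.26 ± 0.04 (SE; adjusted p = 0.0452), under the fold threshold. Omd, which encodes osteomodulin of the same family and lies 15.4 kb from Ogn on chromosome 13, was noticed after the values were seen. It was at 10.43 to 18.76 TPM in WT and 14.97 to 22.81 TPM in cKO LV, with 0.51 ± 0.12 (SE; adjusted p = 0.333).

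Efemp1, the gene of a fibulin of the extracellular matrix, had 0.58 ± 0.12 (SE; adjusted p = 0.128), and 6 of 8 cKO mice were above every WT mouse. Vrk2, a kinase gene 2259 kb from Efemp1 on chromosome 11, had -0.43 ± 0.08 (SE; adjusted p = 0.114). Vrk2 was at 21.34 to 29.36 TPM in WT mice and at 14.78 to 18.68 TPM in 7 of 8 cKO mice, while cKO leptin replicate 2, the mouse that was also high for Inpp5f, had 24.49 TPM. On chromosome 15, Cdpf1 had 0.33 (adjusted p = 0.114) and Celsr1, a cadherin gene of planar cell polarity that starts 87.1 kb beyond Cdpf1, had -0.48 (adjusted p = 0.128). Rgs5, a regulator of G-protein signalling and pericyte marker, had 0.28 (adjusted p = 0.22).

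Gm12816, annotated as a pseudogene on chromosome 4, was at 1.6 to 4.43 TPM in WT and at 0.35 to 2.03 TPM in cKO LV, with -1.63 ± 0.32 (SE; adjusted p = 0.123). Egfem1 held 1 to 10 counts in WT and 2 to 4 in cKO libraries (adjusted p = 0.333). The neuroligin gene Nlgn4l had -0.58 ± 0.16 (SE; adjusted p = 0.583), -0.82 within the 100s, and -0.84 without the 5400s mice, where it passed (edgeR adjusted p = 0.0198). Nlgn4l also passed with the series as a covariate, at -0.86 (edgeR adjusted p = 0.045).

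No gene of lipolysis passed the test in LV. Of 19 listed genes (the lipases, their regulators and the coat proteins of lipid droplets), 0 passed and 0 had an unadjusted p below 0.05, with a median log2 fold change of 0.04 against 0.01 over all genes. Lipe was at 6.69 to 9.52 TPM in WT and 6.17 to 10.2 TPM in cKO LV, with 0.01 (95% confidence interval -0.13 to 0.15). G0s2 was at 31.8 to 46.39 TPM in WT and 31.73 to 53.48 TPM in cKO LV, with 0.07 (-0.2 to 0.35). Hilpda had 0.11 (-0.08 to 0.29). Plin4 and Cidec, of the lipid droplet surface, had 0.35 and 0.53 with intervals from -0.36 to 1.07 and from -0.58 to 1.64.

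The defining adipocyte genes Adipoq, Plin1 and Lep were low in LV, while the summed level of the 21 adipocyte genes was 604 to 1085 TPM in WT and 558 to 1117 TPM in cKO LV. Adipoq, the adiponectin gene, was at 0.7 to 1.98 TPM in WT and 0.3 to 3.08 TPM in cKO LV, against 26.23 to 97.33 TPM in WT and 13.22 to 129.51 TPM in cKO CV of the same mice. In LV Adipoq had a log2 fold change of 0.05 (95% confidence interval -0.58 to 0.68). Plin1, the main coat protein of adipocyte droplets, was at 0.14 to 1.88 TPM in WT and 0.05 to 2.48 TPM in cKO LV, with -0.04 (-1.12 to 1.04). The highest Adipoq and Plin1 values were both those of cKO PBS replicate 3, of the 5400s, with 3.08 and 2.48 TPM. Lep, the leptin gene, held 8 to 27 counts in WT and 1 to 14 counts in cKO mice with PBS, and 0 counts in all 9 mice with leptin. At this depth such levels leave wide intervals. Of the 21 adipocyte genes 0 passed and 0 had an unadjusted p below 0.05, with a median of 0.05, and -0.31 within the 100s. Lpl, a lipase gene at 15.64 to 44.22 TPM in cKO LV, had 0.19 and Pck1 had 0.71 (95% confidence interval -0.51 to 1.94).

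In female CV, 8 of the 19 lipolysis genes and 9 of the 21 adipocyte genes had an unadjusted p below 0.05 and were lower in cKO, against 2.84% of all genes. The list medians were -0.31 and -0.38, and 2 lipolysis genes were higher (against 506 of 14873 genes). The lower lipolysis genes include Pnpla2, the deleted gene, whose fall follows from the design. Plin1 and Cidec are members of both lists. In male CV 1 lipolysis gene was higher and 2, Pnpla2 among them, were lower, and 2 adipocyte genes were higher and 0 lower. The list medians there were 0.03 and 0.1. Of all 14873 genes, 879 were higher and 888 lower at such a p in male CV. Lipe differed between CV and LV in its genotype effect by -0.43 at an unadjusted p of 0.0249 (adjusted over all genes, no gene passed).

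Among 24 genes of PPAR signalling and fatty acid oxidation, 0 passed, with a median of 0.07. At an unadjusted p below 0.05, 1 was higher (against 3.25% of all genes). That gene was Ucp3, a mitochondrial uncoupling protein of muscle and brown fat, with 0.66. Acot1, an acyl-CoA thioesterase gene, had 0.27 and Acadm, a dehydrogenase of beta-oxidation, had 0.13. Of 20 genes of lipid synthesis 0 passed and 0 were below 0.05, with a median of -0.02. Srebf2, the transcription factor of sterol synthesis, had -0.15 and Mlxipl, a carbohydrate-responsive factor, had 0.5.

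Genes of cartilage were higher in cKO LV without passing the adjustment. All 15 listed cartilage genes had values above 0, with a median log2 fold change of 0.34, and 8 (against 3.25% of all genes) were higher at an unadjusted p below 0.05. Col10a1, the collagen of hypertrophic chondrocytes, was at 1.12 to 31.27 TPM in WT and 4.73 to 46.38 TPM in cKO LV, with 1.57 ± 0.49 (SE; adjusted p = 0.789). Col9a1 had 1.58 ± 0.41 (SE; adjusted p = 0.53). Col2a1, the main collagen of cartilage, was at 48.51 to 218.57 TPM in WT and 66.71 to 209.56 TPM in cKO LV, with 0.69 ± 0.25 (SE; adjusted p = 0.936). Of the 10 WT mice, leptin replicates 1 and 4 had the highest Col2a1 (139.77 and 218.57 TPM), and among cKO mice the 2 of the 5400s did (199.74 and 209.56 TPM). Within the 100s the cartilage median was 0.41, with 3 of 15 genes below 0.05 against 17.7% of all genes there, and without the 5400s mice it was 0.23. The values within the 100s were 0.73 for Col9a1, 0.66 for Col10a1 and 0.41 for Col2a1, none of them below an unadjusted p of 0.05. In CV it was 0.06 in females and 0.06 in males. The summed level of the list was 207 to 674 TPM in WT and 300 to 678 TPM in cKO LV. How much cartilage each sample held was not tested.

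Among 20 genes of osteoblasts and osteocytes, 0 passed, 3 were higher (against 3.25% of all genes) and 1 lower (against 1.3%) at an unadjusted p below 0.05, with a median of 0.1. The 3 higher genes encode acidic glycoproteins of bone matrix. Dmp1 was at 16.5 to 40.41 TPM in WT and 25.65 to 61.06 TPM in cKO LV, with a log2 fold change of 0.65 ± 0.17 (SE; adjusted p = 0.49). Ibsp was at 160 to 411 TPM in WT and 232 to 601 TPM in cKO LV, with 0.6 ± 0.19 (SE; adjusted p = 0.789). Spp1, osteopontin, was at 747 to 1406 TPM in WT and 830 to 1756 TPM in cKO LV, with 0.38 ± 0.11 (SE; adjusted p = 0.607). These 3 genes are neighbours on chromosome 5, with 221 kb from the end of Dmp1 to the start of Spp1. Pkd2, which encodes a cation channel of the polycystin family, starts 12.9 kb beyond the end of Spp1. It had 0.65 in LV (adjusted p = 0.389). Pkd2 was one of the 19 genes that changed in male CV, with 0.7. The lower gene was Sost, an osteocyte inhibitor of Wnt signalling, with -0.31. Within the 100s the median of the list was 0.47, and 15 of 20 genes were higher at an unadjusted p below 0.05, against 8.68% of all genes there. With leptin alone the median was -0.02 and with PBS alone 0.21.

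**Figure D4:**
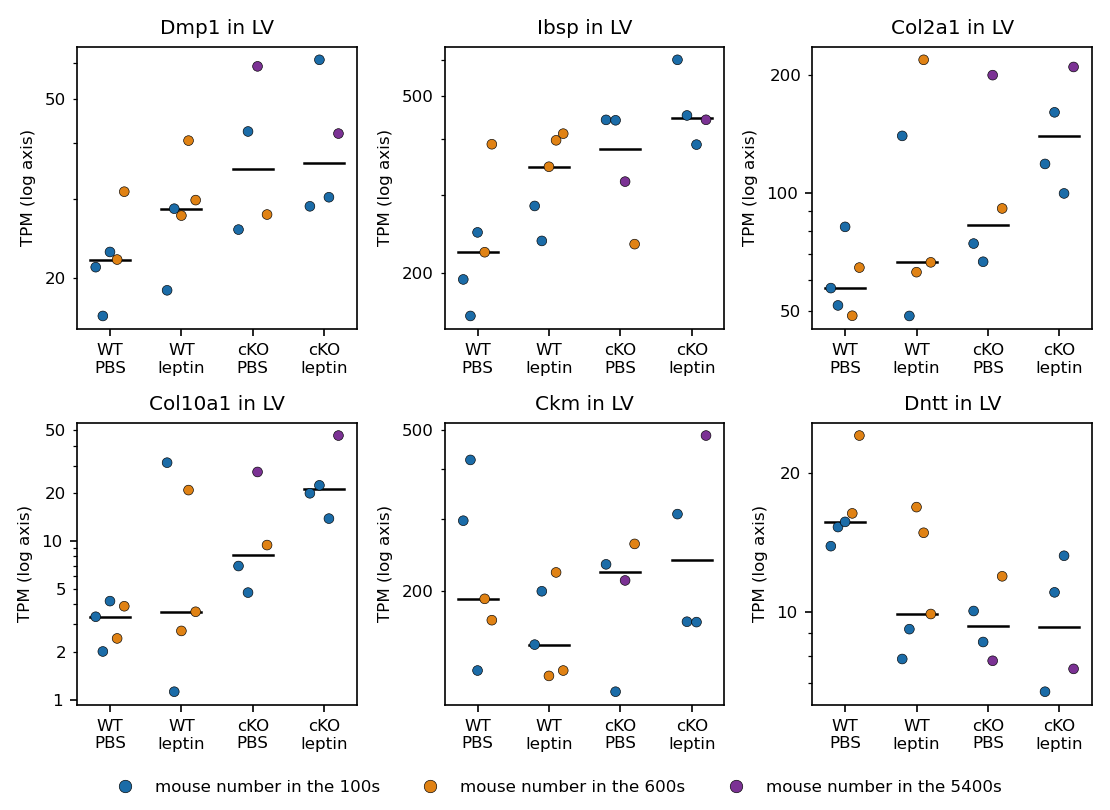
Dmp1, Ibsp, Col2a1, Col10a1, Ckm and Dntt in LV (TPM, log axes) in each mouse by genotype and treatment, with points coloured by mouse number series and lines at the group medians. The genotypes overlap for each of the 6 genes, with Col10a1 at 1.12 to 31.27 TPM in WT and 4.73 to 46.38 TPM in cKO mice.

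Osteoclast and stromal genes did not pass the test either. Of 15 osteoclast genes 0 passed and 0 were below 0.05, with a median of 0.09. Within the 100s 8 of the 15 were higher at an unadjusted p below 0.05 (against 8.68% of all genes there), with a median of 0.2. In female CV 12 of 15 were higher at such a p (against 506 of all 14873 genes), with a median of 0.72. In male CV 4 of 15 were higher (against 879 of 14873), with a median of 0.34. In LV over all 18 mice, Acp5, the tartrate-resistant acid phosphatase, had 0.21, the fusion receptor gene Dcstamp 0.21 and Ostm1, a lysosomal chloride channel subunit, 0.11. Of 20 genes of marrow stroma 0 passed, 3 were higher (against 3.25% of all genes) and 1 lower (against 1.3%) at an unadjusted p below 0.05, with a median of 0.03. Within the 100s 6 were higher (against 8.68% of all genes there) and 2 lower (against 1342 of 14873 genes), with a median of 0.03. Gas6, a ligand of TAM receptors, had 0.16 and the stromal transcription factor Ebf3 had 0.25. Lepr, the leptin receptor that marks marrow stromal cells, had 0.16. In the 100s alone Gas6 had 0.18, Ebf3 0.24 and Lepr 0.0003. The lower gene was Esm1, an endothelial proteoglycan gene. Ebf3 lies 4.26 Mb from Pnpla2.

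Among lymphoid genes, 14 of the 15 genes of the B lineage that passed the filter on low values, of 20 listed, had values below 0, with a median log2 fold change of -0.18. Of these 0 passed and 3 (against 1.3% of all genes) were lower at an unadjusted p below 0.05. Dntt, the terminal transferase of lymphoid progenitors, was at 7.89 to 24.11 TPM in WT and 6.7 to 13.22 TPM in cKO LV, with -0.52 ± 0.18 (SE; adjusted p = 0.936). Vpreb1, of the surrogate light chain, had -0.64 and Pax5, the B-cell transcription factor, had -0.35. Within the 100s the median of the list was 0.03, and Dntt had -0.09, Vpreb1 0.29 and Pax5 -0.21. The summed level of the list was 641 to 894 TPM in WT and 487 to 784 TPM in cKO LV. Of 17 tested genes of T and NK cells, of 18 listed, 0 passed and 0 were below 0.05, with a median of 0.09, and Lck had -0.12, Il2rb 0.18 and Ncr1 0.28.

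Among 19 genes of monocytes and macrophages 0 passed and 4 were higher at an unadjusted p below 0.05 (against 3.25% of all genes), with a median of 0.12. Within the 100s 3 were higher (against 8.68% of all genes there) and 1 lower (against 1342 of 14873 genes), with a median of 0.04. Timd4, a phosphatidylserine receptor of resident macrophages, was at 0.78 to 4.21 TPM in WT and 1.1 to 8.94 TPM in cKO LV, with 1.38 ± 0.36 (SE; adjusted p = 0.504). Spic, the factor of iron-recycling macrophages, had 0.19 and the complement gene C1qa had 0.21. Of 20 neutrophil genes 0 passed and 0 were below 0.05, with a median of 0.04. Csf3r, the receptor of granulocyte colony-stimulating factor, had 0.13, Chil3 had 0.26 and Retnlg 0.22.

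The erythroid list had 16 of 18 genes below 0 and a median of -0.1, and 0 genes passed or were below 0.05. Trim10 had -0.17, the erythropoietin receptor gene Epor -0.15 and the transferrin receptor gene Tfrc -0.15. The summed erythroid level was 185102 to 334414 TPM in WT and 164490 to 335646 TPM in cKO LV. Of 14 megakaryocyte genes 0 were below 0.05, with a median of -0.02, and Itga2b had -0.11 and Rab27b 0.06. Of 17 genes of stem and progenitor cells 0 were below 0.05, with a median of 0.07, and Meis1 had -0.15, Fcer1a 0.23 and Kit -0.09. All 15 proliferation genes were below 0, with a median of -0.06 and 0 below an unadjusted p of 0.05. Of these the replication gene Mcm5 had -0.1, E2f1 -0.12 and Mcm2 -0.13.

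Among 14 endothelial genes 0 passed, with a median of 0.04. At an unadjusted p below 0.05, 1 was higher (against 3.25% of all genes) and 1 lower (against 1.3%). The sinusoidal scavenger receptor gene Stab2 had -0.18, Emcn 0.18 and Ly6c1 0.15. All 15 genes of skeletal muscle, which could adhere to the dissected vertebrae, had values above 0, with a median of 0.22, and 0 were below 0.05. Ckm, muscle creatine kinase, was at 123 to 421 TPM in WT and 112 to 484 TPM in cKO LV, with 0.36, Myh1 had 0.38 and Atp2a1 0.34. The muscle median was -0.16 with PBS, 0.58 with leptin and -0.08 within the 100s. Of 19 tested genes of interferon responses and inflammation, of 20 listed, 0 passed, with a median of 0.12. At an unadjusted p below 0.05, 1 was higher (against 3.25% of all genes), the inflammasome sensor gene Nlrp3 with 0.27. Oas1a had 0.37 and Ifit3 0.28.

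A list of 24 genes known to vary between mouse strains, 21 of them tested, was included because the mice had a mixed background. Of these 0 passed and 1 was higher at an unadjusted p below 0.05 (against 3.25% of all genes), with a median of 0.04. Wdfy1 was at 4.45 to 11.7 TPM in WT and 5.86 to 13.45 TPM in cKO LV, with a log2 fold change of 0.57 ± 0.2 (SE; adjusted p = 0.936), and it was among the 19 genes that changed in male CV, with 0.68. Nlrp1b had 0.31 and the MHC class I gene H2-Q7 had 0.38 in LV.

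**Figure D5:**
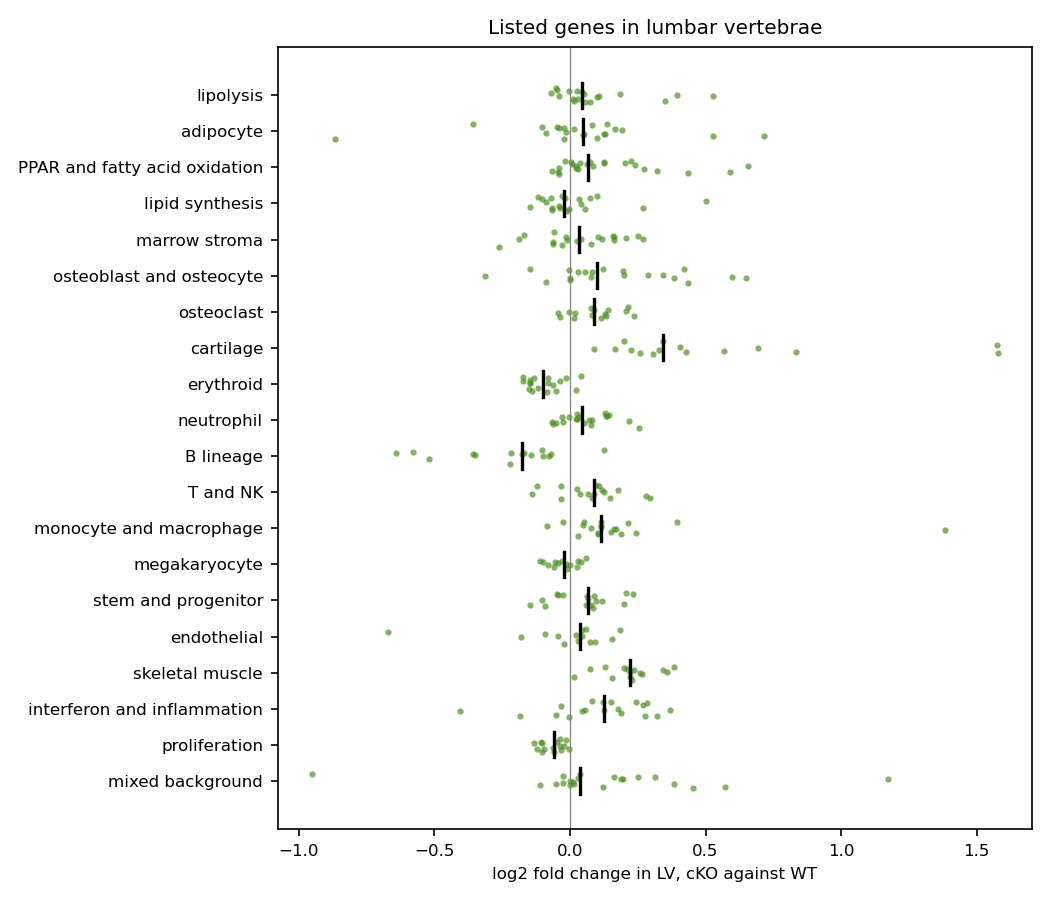
Log2 fold change in LV, cKO against WT, of the tested members of 20 gene lists. Points are genes and black lines the medians of the lists. The medians lie between -0.18 (B lineage) and 0.34 (cartilage), and no listed gene passed.

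Within treatments the genotype difference was tested in a fit of the 4 groups. With PBS, 1 gene changed (0.00672%): Inpp5f fell by 0.66 on the log2 scale (edgeR adjusted p = 0.0129). With leptin 0 genes passed (0%), 461 had an unadjusted p below 0.05, and DESeq2 called 4. The smallest p with leptin was that of Slc25a40, a mitochondrial carrier gene. It was at 9.28, 6.11, 6.31, 9.02 and 5.71 TPM in WT and 11.18, 13.73, 11.52 and 11 TPM in cKO mice with leptin, without overlap. With PBS it was at 8.47 to 12.66 TPM in WT and 8.14 to 10.93 TPM in cKO mice, where the genotypes overlapped. The Slc25a40 log2 fold change was 0.74 with leptin (adjusted p = 0.0574) and -0.04 with PBS.

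No genotype effect differed between leptin and PBS after adjustment. The interaction gave 0 genes in edgeR (0%) and 1 in DESeq2, and 294 genes had an unadjusted p below 0.05. The smallest p among positive interactions were those of Slc25a40, with 0.79 ± 0.16 (SE), the orphan receptor gene Gprc5a, with 1.84 on 4 to 23 counts per library, and LOC118567557, with 0.9. Among negative ones they were those of Wsb2, a substrate adaptor of ubiquitin ligases, with -0.37 ± 0.09 (SE), of Kcnn3, a potassium channel gene with 0 to 7 counts per library, and of the nucleolar gene Lyar, with -0.24. All 6 had an adjusted p of 1. For Inpp5f the interaction was 0.28 at an unadjusted p of 0.0384.

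The difference of the genotype effect between CV and LV, tested in the 36 libraries of the 18 mice with mouse as a block, gave 0 genes (0%) in edgeR and 1 in DESeq2, and 4.6% of genes had an unadjusted p below 0.05. Il4ra, AI467606 and Inpp5f differed between CV and LV by -0.17, 0.18 and 0.18, at unadjusted p of 0.189, 0.114 and 0.0988. For Il21r the CV value exceeded the LV value by 0.58 (edgeR adjusted p = 1). Vrk2 had -0.43 in LV and 0.26 in CV of the same mice, with a difference of 0.7 ± 0.13 (SE) at an unadjusted p of 3.08e-05 (adjusted p = 0.459).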

How the data were processed

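RNA was read with oligo dT selection as 100 bp paired ends and filtered with SOAPnuke, and per the labels HISAT and Bowtie2 were run. The counting tool is not given in the sources used here. The authors deposited estimated counts and TPM for each gene, and 51 values in 6 genes that were not whole were rounded. The labels name GRCm38.p6 and GRCm39, and the study's methods name GRCm38.p6. Positions came from RefSeq (GRCm38.p6) and were found for 99.5% of tested genes. Strand handling is not stated, so overlapping genes cannot be told apart.

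Genes with a mean TPM of at least 0.4 over all 79 libraries were tested (14873 genes) with edgeR 4.0.16 in R 4.3.3 (TMM, quasi-likelihood, Benjamini-Hochberg over all tested genes), with genotype and treatment in the model, over the 18 LV libraries. The test was checked on simulated data. A change needed an adjusted p below 0.05 with a log2 fold change of 0.5 or more in either direction. DESeq2 1.42.0 and limma 3.58.1 were alternatives, as were RLE factors, other filters, the mouse number series, the replicate number as a block and leaving out 1 mouse. Libraries of 1 group came from separate mice. Genes were named by rule: Pnpla2 and its neighbours, called genes, those with the smallest p up to 8 in each direction, up to 3 per list, Adipoq, Lep, Plin1, Lipe and G0s2, and 3 each way for the interaction. Omd, Pkd2, Mgmt, Gsg1l, Esm1, Sost and the other genes within 20 Mb of Pnpla2 were added after their values were seen. Some named genes are not reported here. The comparison and the 20 gene lists were chosen with earlier results of these data known. No unused column belonged to another sample.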

Additional observations from a re-analysis of the deposited data

Results flagged for a closer look

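Among 386 combinations of a named gene and a group of 4 or 5 LV libraries, 20 had a highest or lowest library whose gap to the next, divided by the group's range, passed Dixon's critical value. Chance gives about 1 flag in 20. In WT PBS replicate 5 the highest values were those of Cidec (0.726), Dntt (0.759), Pck1 (0.764) and Pnpla2 (0.752). In WT PBS replicate 4 Inpp5f was lowest (0.725), and in WT PBS replicate 1 Kcnn3 was lowest (1), at 1 count. Among WT leptin libraries, H2-Q7 stood apart in replicate 1 (0.718), E2f1 in replicate 4 (0.866), Rgs5 in replicate 4 (0.729) and Plin1 in replicate 5 (0.755). Among cKO PBS libraries, Csf3r stood apart in replicate 1 (0.873), Vrk2 in replicate 1 (0.891) and Fcer1a in replicate 2 (0.862). In cKO leptin replicate 2, Gas6 (0.837), Ifit3 (0.88), Mtg1 (0.872) and Rab27b (0.8291) stood apart. In cKO leptin replicate 4, Col9a1 (0.839) and Ucp3 (0.832) were highest and Mgmt (0.877) was lowest.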

How the results depend on the processing

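Il4ra, AI467606 and Inpp5f kept their direction under every alternative run. The count of 3 genes in LV became 11 with DESeq2, 5 with the replicate block, 0 within the 100s, 0 with a threshold of 1 on the absolute log2 scale, 5 without the 5400s mice (chosen after seeing the data) and 2 to 4 when 1 mouse was left out. With series as a covariate it stayed at 3, but AI467606 did not pass and Nlgn4l did. Limma on log2(TPM + 1) called 9430038I01Rik and Gm12816 in place of these 3 genes. With PBS the count was 7 with DESeq2, 2 with the replicate block and 0 to 2 without 1 mouse. With leptin it was 4 with DESeq2, 1 with RLE factors, 1 with the replicate block and 0 to 1 without 1 mouse. The interaction gave 1 with DESeq2 and 0 to 0 without 1 mouse, and the CV to LV difference 1 and 0 to 1. Female CV gave 8 with DESeq2 and 0 without 1 mouse. Male CV gave 53 with DESeq2, 7 with the replicate block and 12 to 33 without 1 mouse. Same-numbered cKO and WT libraries deviated with correlations of -0.23 to 0.318, so the numbers were not taken to pair the mice. The Pnpla2 level in LV was -0.00508 with limma, -0.042 without the 5400s mice and -0.019 to 0.11 without 1 mouse. The osteoblast and osteocyte median was 0.47 within the 100s. The share of genes near Pnpla2 at p below 0.05 was 17.9% without the 5400s mice (10.6% elsewhere), 21.1% within the 100s (17.6%) and 17.9% with series as a covariate (12.5%), against 10.8% (4.44%) over all mice. Signs of values that had not passed reversed as follows. Limma gave Adipoq -0.045, Lipe -0.031 and G0s2 -0.0097. The 100s gave Rplp2 0.18, Plin4 -0.45, Lpl -0.062, Pck1 -0.36, Vpreb1 0.29, Il2rb -0.042, Rab27b -0.017, Myh1 -0.0023, Ckm -0.062, Atp2a1 -0.15, Adipoq -0.70, Lipe -0.12 and LOC118567557 -0.013. Series as a covariate gave Pidd1 0.042, Rplp2 0.10, Plin4 -0.13, Adipoq -0.28, Lipe -0.021 and Lyar 0.028. Plin1 was 0.35 with the replicate block and 0.036 without the treatment covariate. Without the 5400s mice Rplp2 was 0.023, Plin4 -0.24, Cidec -0.22, Pck1 -0.19, Adipoq -0.34, Lipe -0.041 and Lyar 0.0043. Without 1 mouse the ranges were -0.066 to 0.034 for Pidd1, -0.083 to 0.011 for Rplp2, -0.035 to 0.52 for Plin4, -0.21 to 0.19 for Adipoq, -0.42 to 0.29 for Plin1, -0.020 to 0.040 for Lipe, -0.030 to 0.15 for G0s2 and -0.042 to 0.0019 for Lyar. The cause of these shifts was not tested. At this depth, values of under 1 TPM rest on few counts.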
